A study of Mus musculus with 8 samples.

Results

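The complement genes C1qa, C1qb, C1qc, C1ra, C3, C4b, C3ar1, C5ar1 and Serping1, were chosen by name and followed in the prefrontal cortex (PFC) of α-Gal A(-/0) and wildtype mice. These 9 members were found by the symbol that the array design gives, and this rule used no measured value. The list itself was chosen with earlier results of these data known. Over the whole array 23638 genes had a tested probe. The members carry 12 probes, of which 11 probes of 8 genes were tested. α-Gal A(-/0) mice lack α-galactosidase A, the lysosomal enzyme whose loss causes Fabry disease, and the study asked how gene expression in the PFC differs in this model. The tested animals were 4 male α-Gal A(-/0) mice and the controls 4 male wildtype mice, all labelled C57BL/6J and 20 to 24 weeks old, with no treatment. Per the study's methods the mutation is on a C57BL/6 background and the genotypes came from separate inbred colonies, so genotype and colony cannot be told apart. Each mouse was measured on 1 one-color array, and the brightness of a probe, given here as a quantile-normalized log2 signal, stands for the amount of its transcript. A difference is α-Gal A(-/0) minus wildtype on this log2 scale, and levels of different probes are not compared.

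Complement is a cascade of proteins that tags and clears material. In the classical pathway, C1q, built from the chains of C1qa, C1qb and C1qc, recognizes a target and activates the proteases C1r and C1s, which cleave C4 and C2, and the resulting enzyme cleaves C3. Fragments of C3 and C5 act on the receptors C3aR1 and C5aR1, and the C1 inhibitor, encoded by Serping1, blocks C1r and C1s. In brain, microglia are the main source of C1q, astrocytes express C3 and C4, and C1q and C3 are known for marking synapses that microglia remove in development.

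The whole set of arrays was read on 1 slide in 1 scan. Between 29943 and 36139 probes were well above background on the α-Gal A(-/0) arrays and between 35648 and 38240 on the wildtype arrays, and α-Gal A(-/0) replicate 2, with the lowest number, also deviated most from the other arrays of its genotype (SD 0.50, against 0.21 to 0.34 for the other 7 arrays). The slide has array rows: α-Gal A(-/0) replicate 1 and wildtype replicates 1, 2 and 3 lay in row 1, and the other 4 arrays in row 2. The probe of Gla, which encodes α-galactosidase A, read 17.13, 17.18, 17.17 and 17.13 in α-Gal A(-/0) mice, against 17.01, 17.17, 17.06 and 17.13 in wildtype mice (log2 fold change 0.06, adjusted p = 0.71, limma). It therefore gives no check of the labels, and whether it lies outside the disrupted part of the gene is not given in the sources used here.

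The C1q chains are encoded side by side on chromosome 4 and each has 1 probe. The probes of C1qa and C1qb are shown because the C1q results rest on a single 60-base stretch of each transcript. On mm9 the C1qa probe lies on the minus strand of chromosome 4 from 136452409 to 136452468, that of C1qc from 136445766 to 136445825 and that of C1qb from 136436578 to 136436637. No annotation of this build was used, so exons and untranslated regions are not assigned.
C1qa: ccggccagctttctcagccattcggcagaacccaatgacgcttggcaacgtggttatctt
C1qb: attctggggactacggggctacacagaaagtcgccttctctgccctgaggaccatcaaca

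C1q was lower in α-Gal A(-/0) mice on average, by about the same amount at all 3 chains, and none of the differences passed the test over all probes. C1qa read 10.88, 11.09, 11.08 and 11.24 in α-Gal A(-/0) mice, against 11.42, 11.41, 11.68 and 11.11 in wildtype mice. C1qb read 10.52, 10.63, 10.64 and 10.79 in α-Gal A(-/0) mice, against 10.95, 10.89, 11.22 and 10.72 in wildtype mice. C1qc read 11.24, 11.24, 11.32 and 11.59 in α-Gal A(-/0) mice, against 11.72, 11.55, 11.91 and 11.44 in wildtype mice. For each chain wildtype replicate 3 was the highest of the 8 mice, and wildtype replicate 4 lay among the α-Gal A(-/0) mice, below α-Gal A(-/0) replicate 4, so that the genotypes overlapped. The log2 fold change was -0.33 for C1qa (standard error 0.13, 95% confidence interval -0.62 to -0.04), with an unadjusted p of 0.029 and an adjusted p of 0.36 (limma, adjusted over every tested probe by Benjamini and Hochberg). It was -0.30 for C1qb (standard error 0.11, adjusted p = 0.35) and -0.31 for C1qc (standard error 0.12, adjusted p = 0.38). In linear terms these are differences of -20.5%, -18.7% and -19.2%.

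The mean of the 3 chains was 10.88, 10.98, 11.01 and 11.21 in α-Gal A(-/0) mice, against 11.36, 11.28, 11.60 and 11.09 in wildtype mice. That is 11.02 ± 0.14 in α-Gal A(-/0) mice, against 11.33 ± 0.21 in wildtype mice (SD, n = 4 each). The difference of -0.31 was not alike in the slide rows. It was -0.53 in row 1, where 1 α-Gal A(-/0) array stands against 3 wildtype arrays, and -0.02 in row 2, where 3 α-Gal A(-/0) arrays stand against 1 wildtype array. For C1qa alone the values were -0.62 in row 1 and 0.02 in row 2. With the slide row as a block the log2 fold changes were -0.30, -0.26 and -0.27 for C1qa, C1qb and C1qc (adjusted p = 0.67, 0.67 and 0.70, limma). The 10 spots of the C1qc probe on each array varied by 2.07% to 4.17% (coefficient of variation), a range well under the differences between mice.

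**Figure D1:**
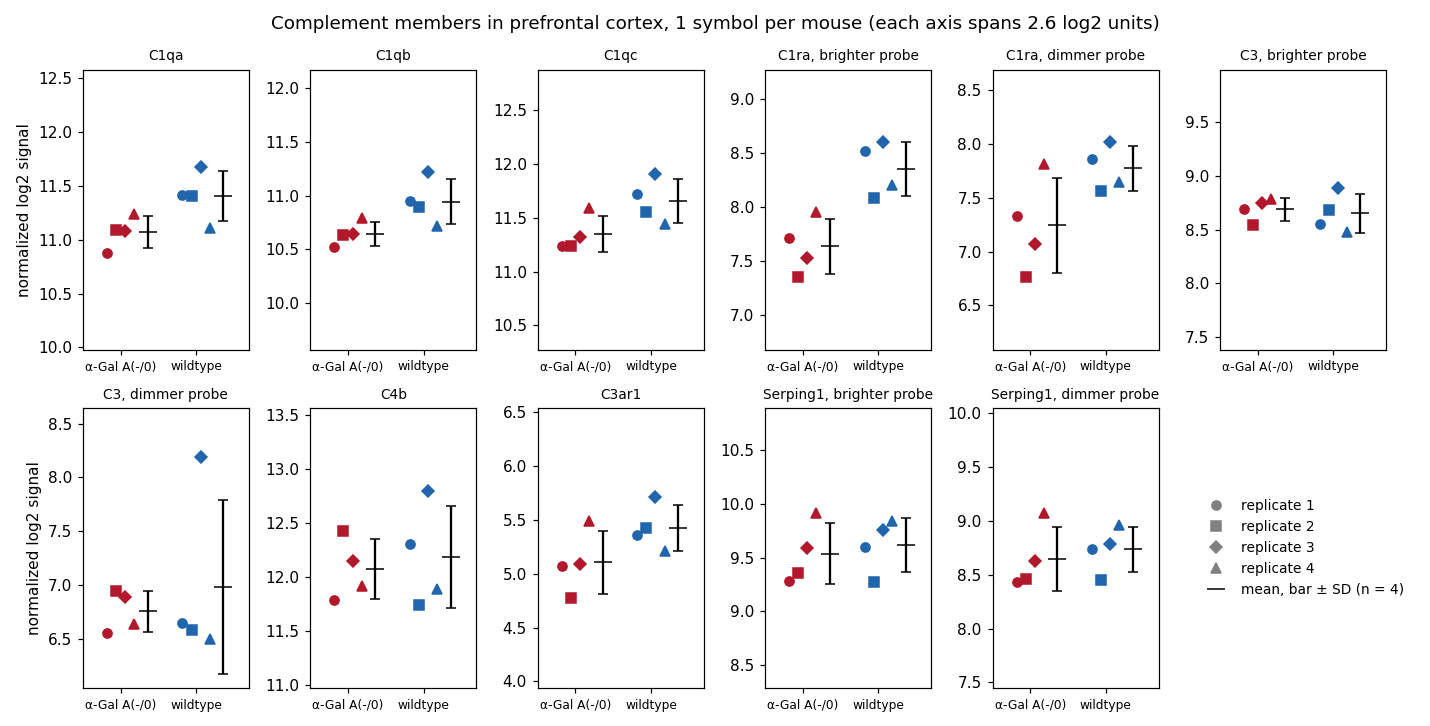
Normalized log2 signal of each of the 11 tested probes in every mouse, α-Gal A(-/0) left and wildtype right, with the mean and SD of 4 mice beside the points; symbols mark the replicate numbers and each axis spans 2.6 log2 units. The genotypes are separate only at the brighter C1ra probe, where the highest α-Gal A(-/0) mouse read 7.95 and the lowest wildtype mouse 8.08.

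The 3 chains followed one another closely over the 8 mice. With each probe centred on its own mean over the 8 mice, C1qa and C1qb differed by 0.03 log2 units per mouse on average, C1qb and C1qc by 0.05 and C1qa and C1qc by 0.07, while the mean of the chains spanned 0.72 between the highest and the lowest mouse. The same measure from C1qa was 0.12 to C3ar1, 0.23 to the brighter C1ra probe, 0.22 to C4b and 0.18 to the brighter C3 probe. The measure is not scaled, so a probe that varies little can lie near C1qa without sharing its pattern. The brighter C3 probe spanned 0.41 over the 8 mice and had a log2 fold change of 0.04, so its 0.18 is not read as likeness. Of 23635 other genes, each by its brightest probe, the most like the mean of the C1q chains were Gngt2, a G protein gamma subunit, at 0.05, Cyba, a subunit of the phagocyte NADPH oxidase, at 0.05, and the adaptor gene Sla2 at 0.06. Their own log2 fold changes were -0.34, -0.28 and -0.21, which follow from the choice. All these genes were read from the same 8 arrays, so the likeness is a description.

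**Figure D2:**
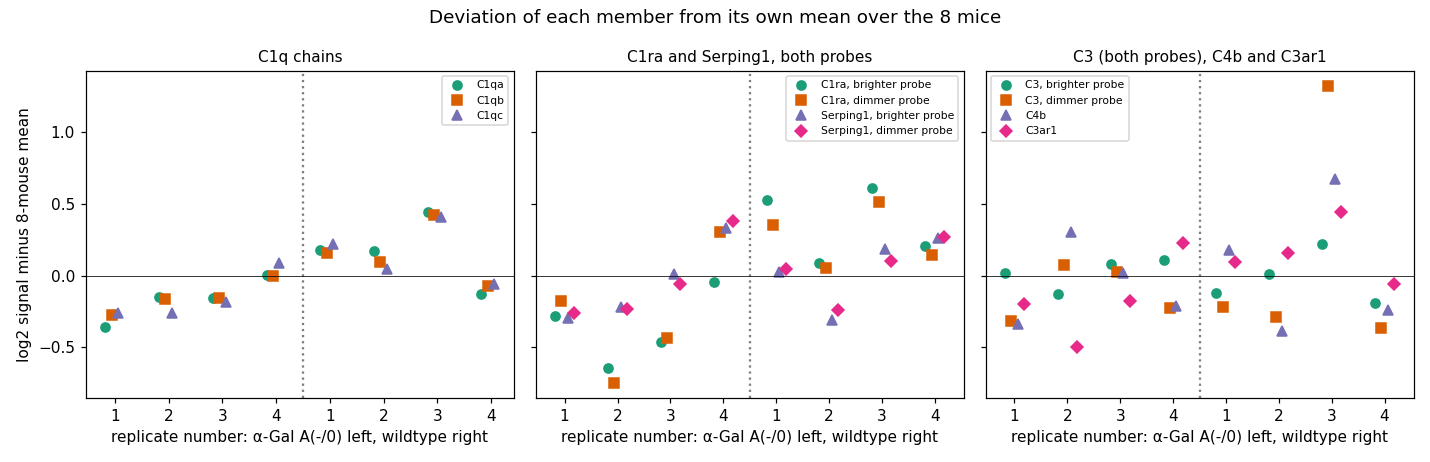
Log2 signal of each tested member probe minus its own mean over the 8 mice, with α-Gal A(-/0) replicates left of the dotted line and wildtype replicates right of it. The points of C1qa, C1qb and C1qc nearly coincide in each mouse, the Serping1 probes do so too, and in the right panel the dimmer C3 probe and C4b stand high in wildtype replicate 3.

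Because the C1q chains followed one pattern, the 250 bases upstream of the RefSeq start are shown for C1qb and C1qc. They lie on the minus strand of chromosome 4 in GRCm38.p6, from 136886201 to 136886450 for C1qb and from 136892915 to 136893164 for C1qc. RefSeq promoter entries matched 6 of the 9 members (C1qb, C1qc, C1ra, C3, C3ar1 and C5ar1). Capitals mark GAGGAA or its reverse complement, a core bound by PU.1, the ETS factor of macrophages and microglia.
C1qb: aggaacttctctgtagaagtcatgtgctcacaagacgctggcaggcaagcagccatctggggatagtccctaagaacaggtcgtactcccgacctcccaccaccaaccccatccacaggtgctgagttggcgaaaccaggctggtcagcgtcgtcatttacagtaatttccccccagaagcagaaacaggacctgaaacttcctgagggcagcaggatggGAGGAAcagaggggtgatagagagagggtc
C1qc: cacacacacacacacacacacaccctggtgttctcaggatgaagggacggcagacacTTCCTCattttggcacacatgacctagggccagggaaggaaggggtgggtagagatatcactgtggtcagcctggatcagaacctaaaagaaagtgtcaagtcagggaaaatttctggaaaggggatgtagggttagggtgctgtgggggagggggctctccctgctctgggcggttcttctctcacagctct
C1qb has 1 such match that starts 30 bases before the start on the sense strand, and C1qc has 1 that starts 193 bases before it on the other strand. The windows of C1ra, C3, C3ar1 and C5ar1 hold none, and 23.3% of the 32851 windows of this length hold at least 1. Motifs of STAT factors (TTCNNNGAA, in 7.02% of windows) and of NF-kB (GGGANTTTC, in 0.941%), searched on both strands, occur in none of the 6 windows. An interferon-type motif (GAAANNGAA, in 7.13%), searched on both strands, occurs once, in that of C5ar1, 66 bases before the start.

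C1ra, the protease that C1q activates first, showed the largest difference among the members, lower in α-Gal A(-/0) mice at both of its probes. The brighter probe, on the plus strand of chromosome 6 from 124473052 to 124473111 (mm9), read 7.71, 7.35, 7.53 and 7.95 in α-Gal A(-/0) mice, against 8.52, 8.08, 8.60 and 8.20 in wildtype mice. All 4 α-Gal A(-/0) mice lay below all 4 wildtype mice, by a margin of 0.12 between the nearest. The means were 7.64 ± 0.26 in α-Gal A(-/0) mice, against 8.35 ± 0.25 in wildtype mice (SD, n = 4 each). The log2 fold change was -0.71 (standard error 0.16, 95% confidence interval -1.08 to -0.35) or -39.1%. The unadjusted p was 0.0020 and the adjusted p 0.12 (limma), so the difference was not called. It was -0.69 in slide row 1 and -0.59 in row 2, and -0.64 with the row as a block (limma, unadjusted p of 0.011 and adjusted p = 0.38).

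The dimmer C1ra probe, 378 bases upstream in the genome from 124472674 to 124472733, is shown as the second reading of the same transcript.
C1ra: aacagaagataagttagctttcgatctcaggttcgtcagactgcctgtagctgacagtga
It read 7.33, 6.76, 7.07 and 7.81 in α-Gal A(-/0) mice, against 7.86, 7.56, 8.02 and 7.65 in wildtype mice. Here α-Gal A(-/0) replicate 4 lay among the wildtype mice, and the log2 fold change was -0.53 (standard error 0.21, adjusted p = 0.39, limma), with -0.48 in slide row 1 and -0.43 in row 2. The probes of C1ra differed from each other by 0.12 log2 units per mouse on average after centring. RefSeq lists only C1ra among the accessions of both probes, and its close relative C1rb has a probe of its own, which differed by -0.21 (adjusted p = 0.43). The genes most like the brighter C1ra probe over the 8 mice were Gsg1 (0.05), the guanylate-binding protein gene Gbp11 (0.06) and Apbb1ip (0.07), an integrin adaptor of leukocytes. Their own log2 fold changes were -0.69, -0.65 and -0.67. They were chosen for a pattern like that of C1ra, so these differences follow from the choice.

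Serping1, which encodes the inhibitor of C1r and C1s, did not show such a difference. Its brighter probe, on chromosome 2 from 84605663 to 84605722 on the minus strand (mm9), read 9.28, 9.36, 9.59 and 9.91 in α-Gal A(-/0) mice, against 9.60, 9.27, 9.76 and 9.84 in wildtype mice. The genotypes overlapped almost wholly. The log2 fold change was -0.09 (standard error 0.17, 95% confidence interval -0.47 to 0.30, adjusted p = 0.88), and -0.08 at the dimmer probe (95% confidence interval -0.46 to 0.29, adjusted p = 0.88). Within slide rows the brighter probe differed by -0.27 in row 1 and -0.22 in row 2, and by -0.25 with the row as a block (adjusted p = 0.77). The dimmer probe reaches from 84605968 to 84607474 in the genome, so that it spans an intron, and its centred values differed from those of the brighter probe by 0.04 per mouse. Nearest to Serping1 were the scramblase gene Plscr1 (0.05), an interval on chromosome 5 with no gene symbol (0.05) and Omd, an extracellular matrix proteoglycan (0.06). The confidence intervals of Serping1 do not reach the -0.71 of the brighter C1ra probe. They overlap the intervals of both C1ra probes, -1.08 to -0.35 at the brighter and -1.02 to -0.03 at the dimmer one. The difference between C1ra and Serping1 was not tested.

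C3, on which all pathways converge, was measured by a pair of probes that lie within 322 bases of each other on the minus strand of chromosome 17 (mm9), from 57343678 to 57343737 for the brighter and from 57343416 to 57343475 for the dimmer one. Their sequences are shown because their readings disagreed in 1 mouse.
C3 brighter probe: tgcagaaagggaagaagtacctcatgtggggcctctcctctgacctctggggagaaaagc
C3 dimmer probe: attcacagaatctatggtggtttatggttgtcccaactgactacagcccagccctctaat
The brighter probe read 8.69, 8.54, 8.75 and 8.78 in α-Gal A(-/0) mice, against 8.55, 8.68, 8.89 and 8.48 in wildtype mice. The log2 fold change was 0.04 (standard error 0.10, 95% confidence interval -0.19 to 0.27, adjusted p = 0.91, limma), and all 8 mice lay within 0.42 of each other. The dimmer probe read 6.55, 6.94, 6.89 and 6.64 in α-Gal A(-/0) mice, against 6.65, 6.58, 8.19 and 6.50 in wildtype mice. Wildtype replicate 3 thus stood 1.53 above the next wildtype mouse. With it the log2 fold change was -0.22 (standard error 0.36, adjusted p = 0.85), and without it 0.18 (adjusted p = 0.66).

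The high reading of the dimmer C3 probe was present in every spot. This probe is printed 10 times on each array, and on the array of wildtype replicate 3 its spots gave a processed signal of 285 to 340, with a median of 316. On the other 7 arrays the medians lay between 83.1 and 122 and no spot exceeded 141. The spots of this probe varied by 5.23% to 14.8% within an array. At the brighter probe wildtype replicate 3 was also the highest of the 8 mice, at 8.89, only 0.11 above α-Gal A(-/0) replicate 4. The named gene most like the brighter C3 probe over the 8 mice was Riiad1 (0.04), beside intervals on chromosomes 8 and 3 with no gene symbol (0.04 each).

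**Figure D3:**
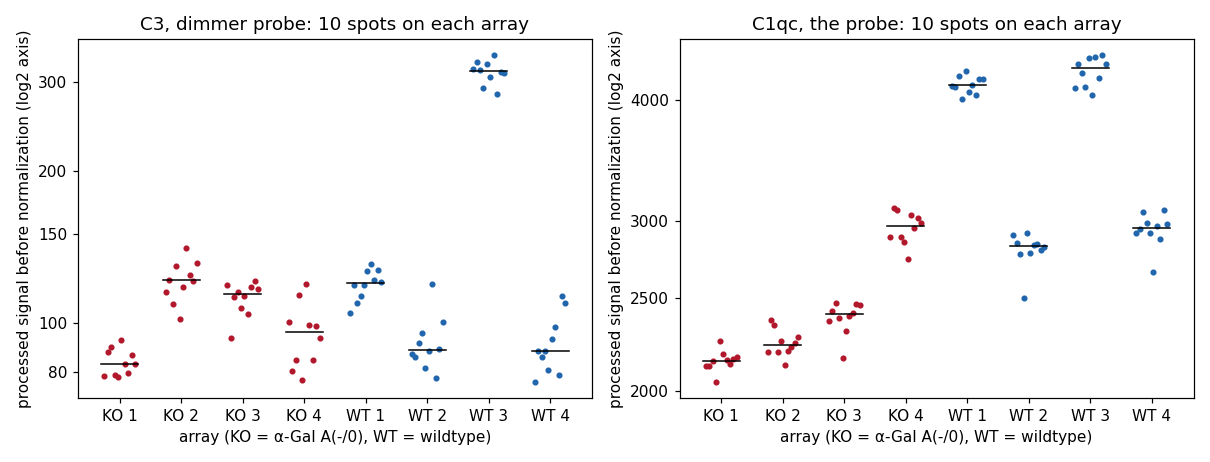
Processed signal before normalization, on a log2 axis, of the 10 spots of the dimmer C3 probe (left) and of the C1qc probe (right) on each array; α-Gal A(-/0) arrays come first and black lines are medians. The C3 spots of wildtype replicate 3 lie between 285 and 340 and those of all other arrays at or below 141.

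C4b, cleaved by C1s in the classical pathway, varied widely between mice in both genotypes. Its probe, on the minus strand of chromosome 17 from 34865328 to 34865387 (mm9), read 11.79, 12.43, 12.15 and 11.92 in α-Gal A(-/0) mice, against 12.31, 11.74, 12.80 and 11.89 in wildtype mice. The lowest and the highest of the 8 values were both wildtype. The log2 fold change was -0.11 (standard error 0.24, 95% confidence interval -0.67 to 0.44, adjusted p = 0.89, limma) and 0.09 without wildtype replicate 3. It was -0.50 in slide row 1 and 0.27 in row 2. Among the accessions the design gives for this probe are those of C4b and of its near-identical copy C4a, so the signal cannot be assigned to C4b alone. The genes most like C4b were E330024J20Rik (0.12), an interval on chromosome 5 with no gene symbol (0.13) and Gpr160, a G protein-coupled receptor (0.15), all farther from it than the nearest genes were from the other members.

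C4b lies in the class III region of the major histocompatibility complex, so the genes around it were looked at as well. Of 23 listed neighbours, 17 were tested and none was called. At an unadjusted p under 0.05, 2 were lower in α-Gal A(-/0) mice, against 7.53% of all tested genes, and none was higher. The median log2 fold change was 0.00. Gpsm3, a G protein regulator of leukocytes, had -0.33 (adjusted p = 0.16), with all 4 α-Gal A(-/0) mice below all 4 wildtype mice, and Notch4, an endothelial receptor, had -0.21 (adjusted p = 0.38). C2 and Cfb, complement genes of the same region, are given with their pathways.

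C3ar1 and C5ar1, the receptors among the members, were near or below the limit of detection. C3ar1, the receptor of C3a found on microglia in brain, was well above background on 3 of the 4 α-Gal A(-/0) arrays and on all 4 wildtype arrays. Its probe, on chromosome 6 from 122798222 to 122798281 on the minus strand (mm9), read 5.07, 4.77, 5.09 and 5.49 in α-Gal A(-/0) mice, against 5.36, 5.42, 5.71 and 5.21 in wildtype mice. The α-Gal A(-/0) array below background was that of replicate 2, whose lowest signal counted as above background, at 5.49, was the highest of the 8 arrays. The log2 fold change was -0.32 (standard error 0.16, 95% confidence interval -0.69 to 0.05, adjusted p = 0.48, limma), with -0.43 in slide row 1 and -0.10 in row 2. The nearest to C3ar1 over the 8 mice was Nppb, which encodes a natriuretic peptide, at 0.05, followed by an interval on chromosome 6 (0.06) and an unnamed transcript (0.06), both without a gene symbol. C5ar1, on chromosome 7 from 16832243 to 16832302 on the minus strand (mm9), was not well above background on any array, with readings of 1.98 to 3.90 in α-Gal A(-/0) mice, against 2.15 to 3.86 in wildtype mice, and was not tested.

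As a set, 0 of the 8 tested members were called at an adjusted p under 0.05, where 0.935% of all tested genes were called in either direction. At an unadjusted p under 0.05, 4 members (C1qa, C1qb, C1qc and C1ra) were lower in α-Gal A(-/0) mice, against 7.53% of all tested genes. The criterion used in the study, applied here to the limma p (at or under 0.01 before adjustment, with a fold change from 1.2 upward), was passed by 1 member, C1ra, where 2.34% of all genes passed it in this direction. C1ra was also the only member whose genotypes did not overlap, against 5.14% of all genes with the 4 α-Gal A(-/0) values below the 4 wildtype values. A log2 fold change below 0 was found for 7 of the 8 members, all but C3, and for 57.4% of all genes. Among these 7, C3ar1 was near the limit of detection and passed the filter only through the wildtype arrays, where it was higher. The median log2 fold change was -0.30 over the members and -0.02 over all genes. The 3 C1q chains followed one pattern and are not independent of each other, and wildtype replicate 3 was the highest of the 8 mice at 9 of the 11 member probes. Leaving out 1 mouse moved these counts. Without α-Gal A(-/0) replicate 4, 5 members did not overlap (C1qa, C1qb, C1qc, C1ra and C3ar1), and with this mouse left out 9.47% of all genes had every α-Gal A(-/0) value below every wildtype value. Without wildtype replicate 4, 3 members (C1qa, C1qb and C1ra) passed the criterion and did not overlap, where 1.99% of all genes passed it in this direction and 6.81% did not overlap in this direction.

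**Figure D4:**
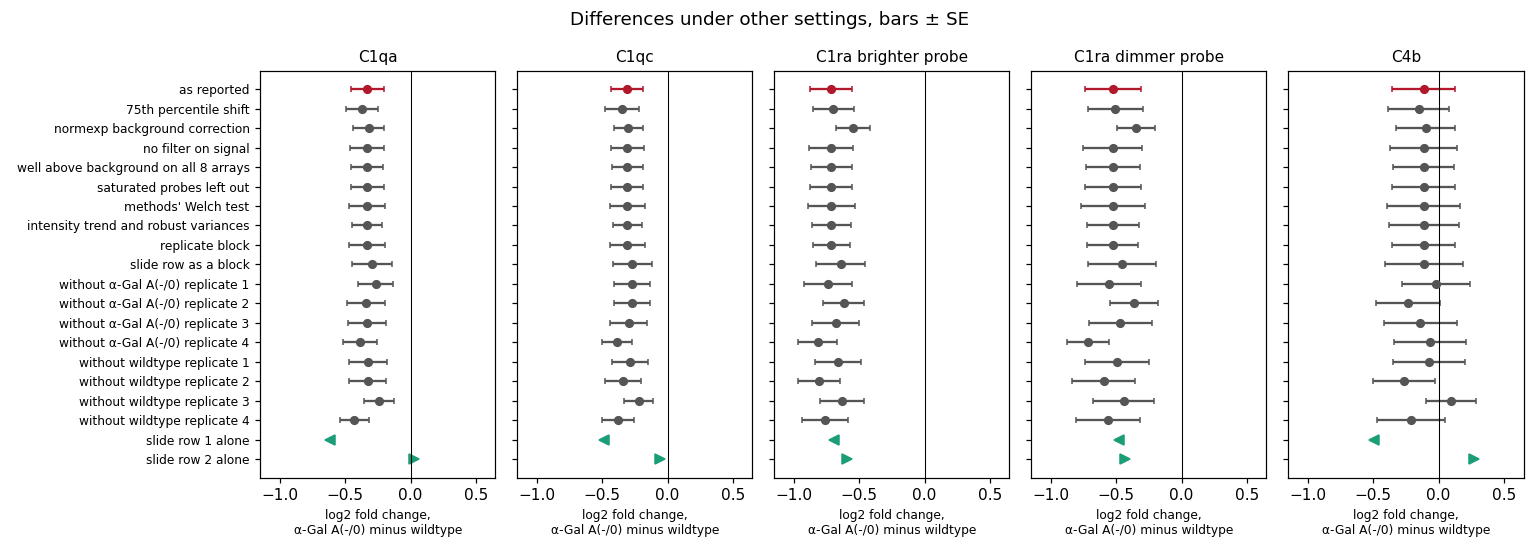
Log2 fold changes (α-Gal A(-/0) minus wildtype) of C1qa, C1qc, both C1ra probes and C4b as reported (red), under other processing or with 1 array left out (grey, bars ± SE), and within each slide row alone (green, no error). C1ra stays below 0 in both slide rows, at -0.69 and -0.59 for the brighter probe, while C1qa is at -0.62 in row 1 and 0.02 in row 2.

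Markers of the cell types that can make complement were read on the same arrays, and most were not called. All 18 listed microglia markers were tested. Of these, 15 had a log2 fold change below 0, where 57.4% of all genes did, and 2 fell in α-Gal A(-/0) mice by the test, among them the growth factor receptor Csf1r (-0.44, adjusted p = 0.012, limma), where 0.935% of all genes were called. Above 0 were Fcrls, Gpr34 and Siglech, at 0.27, 0.25 and 0.06. At Gpr34 α-Gal A(-/0) replicate 2 read 10.76 and all other mice at most 9.53. Without this mouse Gpr34 had -0.11, while Fcrls and Siglech had 0.32 and 0.04. The mean of the list ran from 11.52 to 11.59 in α-Gal A(-/0) mice, against 11.72 to 11.85 in wildtype mice. The difference of the list was -0.30 in slide row 1 and -0.15 in row 2. Of the other Csf1r probes, 1 had -0.37 and 1 had 0.59. At that last probe α-Gal A(-/0) replicate 2 read 12.12 and all other mice at most 10.14. In whole tissue, fewer cells of a type and less RNA per cell cannot be told apart, and the part of microglial markers in the C1q values was not tested.

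Of the perivascular and meningeal macrophage markers 7 were tested, all with a log2 fold change below 0 and none called. Lyve1 (-0.37), 1 of these, was well above background on 3 of the 4 α-Gal A(-/0) arrays and on all 4 wildtype arrays. It thus passed the filter only through the wildtype arrays, where it was higher. The mean of the 7 markers ran from 7.32 to 7.70 in α-Gal A(-/0) mice, against 7.65 to 8.14 in wildtype mice. F13a1 had -0.30 and Mrc1 -0.50 (adjusted p = 0.27 and 0.28, limma). Astrocyte markers, 10 tested and none called, were all below 0, with a mean of 12.44 to 12.56 in α-Gal A(-/0) mice, against 12.62 to 12.65 in wildtype mice. Gjb6 had -0.18 and Aqp4 -0.20 (adjusted p = 0.27 and 0.29). Of 10 fibroblast markers, 5 were below 0 and none was called, and the list means overlapped, from 9.39 to 9.70 in α-Gal A(-/0) mice, against 9.41 to 9.73 in wildtype mice, and Col1a2 had 0.19 and Lum -0.29 (adjusted p = 0.45 and 0.47). Blood cells gave little signal: of 7 monocyte and neutrophil markers on the array 4 passed the filter, and Ccr2 and Ngp were among those that did not, while S100a9 and S100a8 had -0.78 and -0.63 (adjusted p = 0.45 and 0.56). The part of these cells in the member values was not tested.

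Among the other genes of complement, 40 of the 59 on the array were tested, 0 were called by limma. At an unadjusted p under 0.05, 3 had a higher and 6 a lower signal in α-Gal A(-/0) mice. Of all tested genes, 7.53% were lower at this threshold, and the share that was higher was not counted. Their median log2 fold change was -0.07. In the classical and lectin pathways 8 of 14 genes were tested, 6 of them below 0. C1s2, a protease paralog of C1s, had -0.35 (adjusted p = 0.40, limma), C1s1 had -0.23 (adjusted p = 0.61) and C2 had -0.22 (adjusted p = 0.52). The accessions of the C1s2 probe include those of C1s1, so its signal cannot be assigned to C1s2 alone. Masp2, the lectin pathway protease, read 7.72, 7.79, 7.74 and 7.72 in α-Gal A(-/0) mice, against 7.47, 7.53, 7.66 and 7.54 in wildtype mice, higher by 0.20 with no overlap but not called (adjusted p = 0.25). The mannose-binding lectins Mbl1 and Mbl2 and the ficolin genes Fcna and Fcnb did not pass the filter. In the alternative pathway Cfb, the convertase component factor B, read 4.83, 3.63, 5.20 and 4.37 in α-Gal A(-/0) mice, against 5.25, 4.40, 6.15 and 5.47 in wildtype mice. Its log2 fold change was -0.81 (standard error 0.43, adjusted p = 0.50), and -0.51 without α-Gal A(-/0) replicate 2. Cfb was well above background on 3 of the 4 α-Gal A(-/0) arrays and on all 4 wildtype arrays. The reading of 3.63 in replicate 2 lay below the lowest signal counted as above background on that array, 5.49. Cfp, properdin, had 0.06 (adjusted p = 0.83). Of the terminal pathway only Hc (the mouse gene of C5), C7 and C8g were tested, with 0.40, -0.28 and 0.11 (adjusted p = 0.63, 0.40 and 0.73). C7 was well above background on 2 of the 4 α-Gal A(-/0) arrays and on all 4 wildtype arrays.

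Regulators of complement lay on both sides of 0, with 11 membrane and 6 fluid-phase regulators tested and 7 and 4 of them below 0. Sez6, a synaptic protein with complement-regulating domains, read 11.77, 11.98, 11.79 and 11.72 in α-Gal A(-/0) mice, against 11.27, 11.53, 11.45 and 11.43 in wildtype mice. It was higher by 0.40 with no overlap (standard error 0.08, adjusted p = 0.088, limma), the lowest adjusted p of all complement genes examined, and by 0.31 at its other probe. Cd59a, which blocks the membrane attack complex, read 10.10, 9.97, 10.24 and 9.93 in α-Gal A(-/0) mice, against 9.08, 8.43, 9.30 and 9.85 in wildtype mice. The genotypes did not overlap, and the log2 fold change was 0.89 (standard error 0.26, adjusted p = 0.24). It was 1.16 in slide row 1 and 0.20 in row 2. Cd46, a cofactor for cleavage of C3b and C4b, had -0.20 (adjusted p = 0.55). In the fluid phase, Srpx2 had 0.19 and Cpb2 -0.22 (adjusted p = 0.57 and 0.63). Of the other receptors, 10 were tested and 8 were below 0. Among these 8 was Itgax (-0.22), which passed the filter only through the wildtype arrays, where its mean was higher. It was well above background on 3 of the 4 α-Gal A(-/0) arrays, and differed by -0.56 in slide row 1 and 0.60 in row 2. Itgb2, the beta chain of complement receptors 3 and 4, had -0.39 (adjusted p = 0.27), the phagocytic receptor Megf10 -0.22 with no overlap (adjusted p = 0.29) and C5ar2, the second C5a receptor, -0.29 (adjusted p = 0.32). Itgam, the alpha chain of complement receptor 3, had -0.04 at its brightest probe, and -0.18 and -0.07 at dimmer ones. The probe with -0.07 was well above background on 3 of the 4 α-Gal A(-/0) arrays and on all 4 wildtype arrays. Its reading of 4.92 in α-Gal A(-/0) replicate 2 lay below the lowest signal counted as above background on that array, 5.49.

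**Figure D5:**
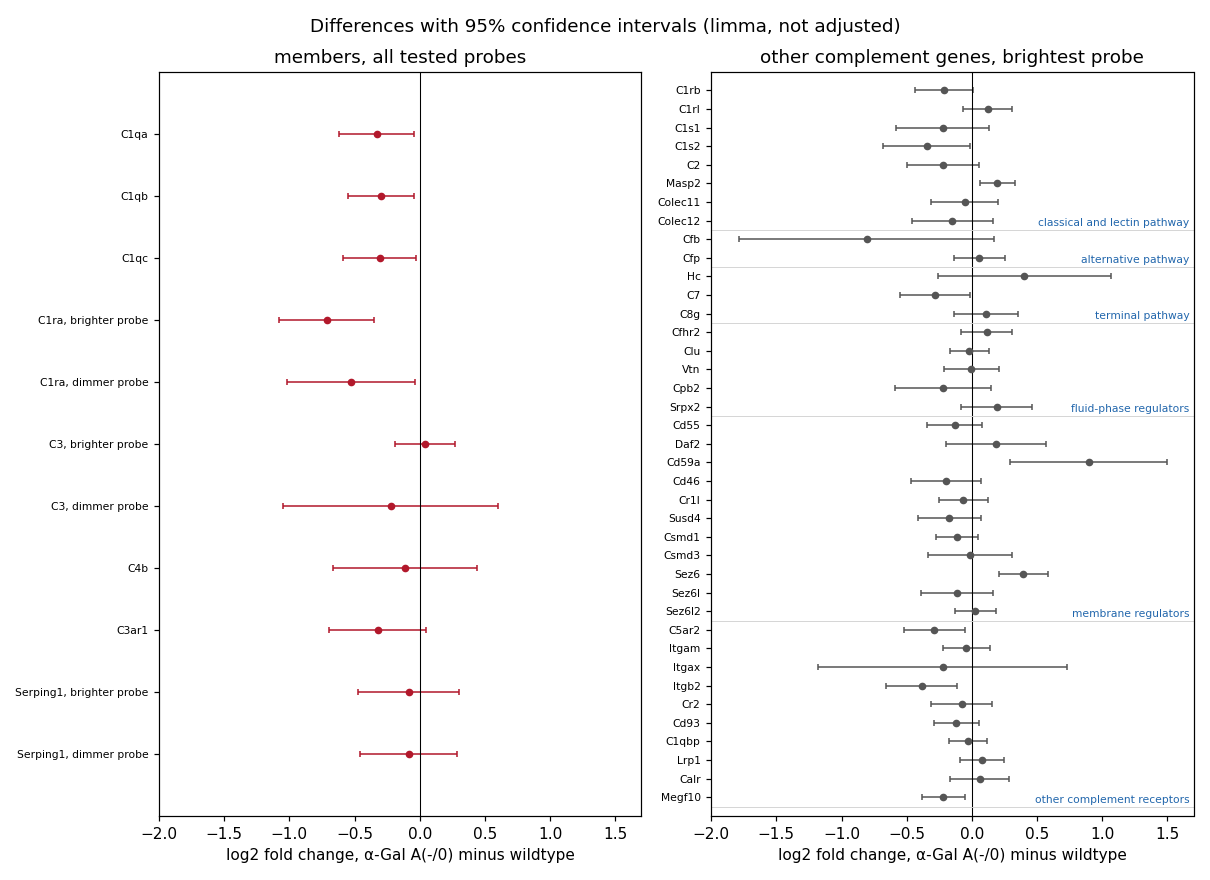
Log2 fold changes (α-Gal A(-/0) minus wildtype) with unadjusted 95% confidence intervals for the 11 tested member probes (left) and for the brightest probe of other complement genes (right), grouped by role. The brighter C1ra probe lies at -0.71, and on the right Sez6 at 0.40 and Cd59a at 0.89 lie above 0.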

How the data were processed

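RNA of the PFC of 4 α-Gal A(-/0) and 4 wildtype mice was hybridized to Agilent SurePrint G3 arrays, 1 per mouse. The deposited intensity values are processed signals that, per the file headers, Feature Extraction (10.7.3.1, from the submitters' processing notes) had detrended without normalization between arrays. A deposited table of normalized log2 values was not used, since its columns do not follow their sample names. Spots of a probe were averaged and log2 signals quantile normalized, as the methods of the study name it. Control probes were dropped, as were 81 probes with uneven spots. Of 55681 probes, the 34339 that stood well above background on every array of at least 1 genotype entered the test. C1rb, C3ar1, Cfb, C7, Cpb2, Daf2, Itgax, Lyve1, Plac8 and S100a8, for instance, did so only through the wildtype arrays. Genotypes were compared by limma 3.58.1 (lmFit, eBayes) under R 4.3.3, two-sided, and p-values were adjusted by Benjamini and Hochberg for all these probes, with calls at an adjusted p under 0.05. A gene was counted by its brightest tested probe. The p-values set the difference between genotypes against the spread between mice of a genotype, moderated over all tested probes. They do not separate genotype from colony, and 4 arrays per genotype limit the precision. Tables and figures were made with Python 3.11.15 (pandas 2.3.3, numpy 2.4.6, scipy 1.17.1, matplotlib 3.10.9).

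The members and all lists were chosen with earlier results of these data known. Named genes are the members with every probe, up to 3 genes of each other complement list and up to 2 of each marker list with the lowest p, and the 3 genes most like each measured member pattern. Further genes, such as C2, Itgam and the neighbours of C4b, were named after their values were seen, and some genes that the rule names are not reported here. Likeness is the mean absolute difference of centred log2 signals over the 8 mice. Positions are those of the array design (mm9), and promoters are RefSeq's (GRCm38.p6).

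The fit was tested on simulated data. Tried as alternatives were a shift to the 75th percentile, normexp with an offset of 50, no signal filter or one on all 8 arrays, the omission of saturated probes, Welch's test of the methods, variances with an intensity trend and robust fit (statmod 1.5.0), blocks for the replicate number and for the slide row, and the omission of each array. Values within each slide row were added after seeing the data.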

Additional observations from a re-analysis of the deposited data

Results flagged for a closer look

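In 12 of 138 groups of 4 values examined (member probes, other complement genes by their brightest probe, and means of gene lists), 1 mouse lay far from the other 3 of its genotype by Dixon's test, which chance alone gives in about 1 in 20 groups. At the dimmer C3 probe wildtype replicate 3 read 8.19, and the next wildtype mouse 6.65. The same mouse was high at Cpb2, a carboxypeptidase that inactivates C3a and C5a, at 6.20, and in the mean of the terminal pathway genes, at 6.48.

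α-Gal A(-/0) replicate 4 was set apart from the other α-Gal A(-/0) mice at Cpb2 (5.67, high), at Srpx2, which encodes an inhibitor of C1q (10.33, high), at the complement regulator Susd4 (14.73, low) and at Csmd3 (7.85, low). The mean of the fluid-phase regulators in this mouse was 11.21 and that of the endothelial markers 10.698, both high.

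Wildtype replicate 2 was low at Daf2, a decay-accelerating factor (4.55). Wildtype replicate 4 was low at Sez6l (7.10) and at C1qbp, which encodes a C1q-binding protein found mainly in mitochondria (13.29).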

How the results depend on the processing

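No member was called in the reported fit, and limma with an intensity trend and robust variances called 1, C1ra (log2 fold change -0.71, adjusted p = 0.037, range over its 17 alternatives 0.037 to 0.38); the same setting called 1 other complement gene, Sez6 (adjusted p = 0.016). With the slide row as a block, 0 members passed the criterion of the study, in place of 1, since the unadjusted p of C1ra was 0.011. With 1 array left out in turn, 1 to 3 members passed that criterion and 1 to 5 members had genotypes that did not overlap. The mean difference of the C1q chains was -0.39 to -0.22 with 1 array left out, and -0.53 in slide row 1 and -0.020 in row 2, a split chosen after seeing the data; the cause was not tested. With the replicate number as a block, C1ra had an adjusted p of 0.18 and C1qa of 0.41, and no call changed. The numbers were not taken to pair the mice, as the residual correlations of arrays with one number were -0.09, 0.14, 0.01 and 0.15. Of 186 values of member probes recomputed, 4 had another sign. The brighter C3 probe had -0.02 without wildtype replicate 4, and the dimmer one 0.18 without wildtype replicate 3. C4b had 0.09 without wildtype replicate 3, and the brighter Serping1 probe 0.00 without α-Gal A(-/0) replicate 1. The mean of the C3 probes was -0.09. C3ar1 and C5ar1 are limited by signal over background.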

Other observations

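Markers of cell types with no part in the account above were read beside the complement genes, and none was called. Of 8 oligodendrocyte markers, 6 had a log2 fold change above 0, and the list mean was 13.47 to 13.51 in α-Gal A(-/0) mice, against 13.25 to 13.50 in wildtype mice. The myelin gene Mobp had 0.30 and the tight junction gene Cldn11 0.22 (adjusted p = 0.30 for both, limma). Of 8 endothelial markers, 5 were below 0, with the growth factor receptors Flt1 at -0.25 and Kdr at 0.22 (adjusted p = 0.23 and 0.42). Of 8 mural cell markers, 7 were below 0, with the potassium channel genes Abcc9 at -0.37 and Kcnj8 at -0.48 (adjusted p = 0.22 and 0.28). All 8 markers of excitatory cortical neurons were below 0, with Tbr1 at -0.21 (adjusted p = 0.42), and 3 of 6 markers of inhibitory neurons, with Pvalb at -0.19 and Vip at -0.24 (adjusted p = 0.50 and 0.58). Of 5 tested choroid plexus markers, Kl had 0.46 and Kcnj13 -0.21 (adjusted p = 0.33 and 0.49), and Ttr, the most abundant choroid plexus transcript, did not pass the filter.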
